A study of Mus musculus with 2 samples.

Results

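The cytochrome P450 genes of the mouse were examined as DNA copies, not as transcripts, with arrays for comparative genomic hybridisation, in which differently dyed DNA of offspring and of control animals binds to shared probes. The set was every measurement probe on chromosomes 1 to 19 whose gene name starts with Cyp and a digit. It held 107 of the 42404 probes, under 60 gene names at 63 loci (a locus is a gene name on a chromosome) of the 22909 named autosomal loci. Of these loci 34, with 55 probes, lay in 8 tandem clusters of Cyp2, Cyp3a or Cyp4 genes, in which a gene has a probe of the same family within 500 kb, and the other 29, with 52 probes, are called single genes. There were 23 loci with 1 probe, 36 with 2 and 4 with 3, and the probes were 48 to 60 bases long.

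There was 1 array per stage. On the adult array, tail DNA of adult Dnmt3L+/+ females, the wild-type offspring of a Dnmt3L+/- sire, was labelled with Cy3 and set against tail DNA of Dnmt3L+/+ females of an unrelated C57BL/6 colony, in Cy5. On the embryo array, whole-embryo DNA at E10.5 from Dnmt3L+/+ offspring of a Dnmt3L+/- sire was in Cy5 and embryos of a control cross were in Cy3. The description gives both sides of each array as C57BL/6, while the title of the embryo array names (FVB/NJ x C57BL/6)F1, so the strain of the embryos is not settled. Dnmt3L is a cofactor of the enzymes that place DNA methylation in germ cells, the series asks what its loss of 1 copy in the sire does to offspring, and by the labels no animal on either array carries the altered allele. The labels do not say whether animals were pooled.

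All values below are log2 of offspring over control, centred on the median of each array, and the value of a locus is the median over its probes. Probes were well above background for 97.3% of offspring and 98.8% of control signals in adult DNA and for 99.9% of both in embryo DNA. Among 308 probes spotted repeatedly, the median SD of the ratio was 0.19 in adult DNA and 0.065 in embryo DNA. Probes on X had a median of −0.86 on both arrays, although both sides of each array are labelled female. What lowers X was not tested, and the Cyp loci are all autosomal. With 1 array per stage there is no replicate, and the number of arrays limits the precision. A locus is counted as higher or lower when its median lies at least 0.3 from the array median and at least 2 of its probes are usable, meaning well above background in both channels.

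Cytochromes P450 are haem enzymes that insert an oxygen atom into their substrates. Families CYP1 to CYP4 are known mainly for clearing drugs, pollutants, fatty acids and eicosanoids, chiefly in liver, and in rodents many of them lie in rows of closely similar neighbours that arose by gene duplication. Most other families hold a gene or a few, each with a set step in the making or breaking of steroids, bile acids, cholesterol, vitamin D or retinoic acid.

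Some Cyp loci lay at least 0.3 from the array median on each array, and no cluster median did so on both. In adult DNA, 2 of 39 Cyp loci with at least 2 usable probes passed 0.3 (5.13%), where the share over all autosomal loci was 12.4%. Both were higher, with 5.71% of all loci higher and 6.74% lower, and both were tandem genes, Cyp2c55 and Cyp2g1. In embryo DNA, 5 of 40 did so (12.5%, against 14.6% of all autosomal loci). Of these, 4 were higher (6.56% of all loci were), namely Cyp11a1, Cyp21a1, Cyp2b19 and Cyp4f13, and 1 was lower (8.06% of all loci were), Cyp20a1. No locus passed with at least 2 usable probes on both arrays. With another background correction of the signals (normexp), these counts changed. In adult DNA 1 of 39 then passed, the lower Cyp2j9 at −0.34 (2.56%, against 0.732% of all autosomal loci), with Cyp2c55 at 0.2997 and Cyp2g1 at 0.044. In embryo DNA 9 of 40 passed, all higher (22.5%, against 18.2% of all loci), the 4 higher loci above among them, while Cyp20a1 stood at −0.28. In both stages the Cyp share lay below that of all loci with the processed signals and above it with normexp. These shares rest on 1 to 9 loci, so neither order is read as a result about the Cyp loci. Nearest to the threshold were Cyp2g1 at 0.32 inside it and Cyp19a1 at −0.297 outside it in adult DNA, and Cyp20a1 at −0.43 inside and Cyp4f15 at 0.29 outside in embryo DNA.

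Tandem genes had a median of 0.091 ± 0.26 (SD over 34 loci) in adult DNA, against −0.042 ± 0.23 for 29 single genes, a difference of 0.13 that became −0.016 with normexp. In embryo DNA the medians were 0.084 ± 0.24 for tandem and −0.030 ± 0.27 for single genes, a difference of 0.11. The single class includes 3 loci whose probes lie on another chromosome than the gene in the RefSeq table. Without them, 26 single genes remained, and the differences were 0.14 in adult DNA and 0.12 in embryo DNA. It also includes the neighbours Cyp1a1 and Cyp1a2. Without that pair the differences were 0.13 and 0.10. The median over all autosomal loci was 0.0093 ± 0.27 in adult DNA and 0.0082 ± 0.31 in embryo DNA. Of the tandem probes, 31 of 55 lay above 0 in adult DNA and 37 of 55 in embryo DNA, while of the single probes 26 of 52 and 22 of 52 did so. The shares in embryo DNA, 67.3% and 42.3%, lie on either side of the 51.8% of all named autosomal probes, and those in adult DNA, 56.4% and 50%, on either side of 51.7%. Genes of 1 array are not replicates, so the classes were not tested against each other.

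**Figure D1:**
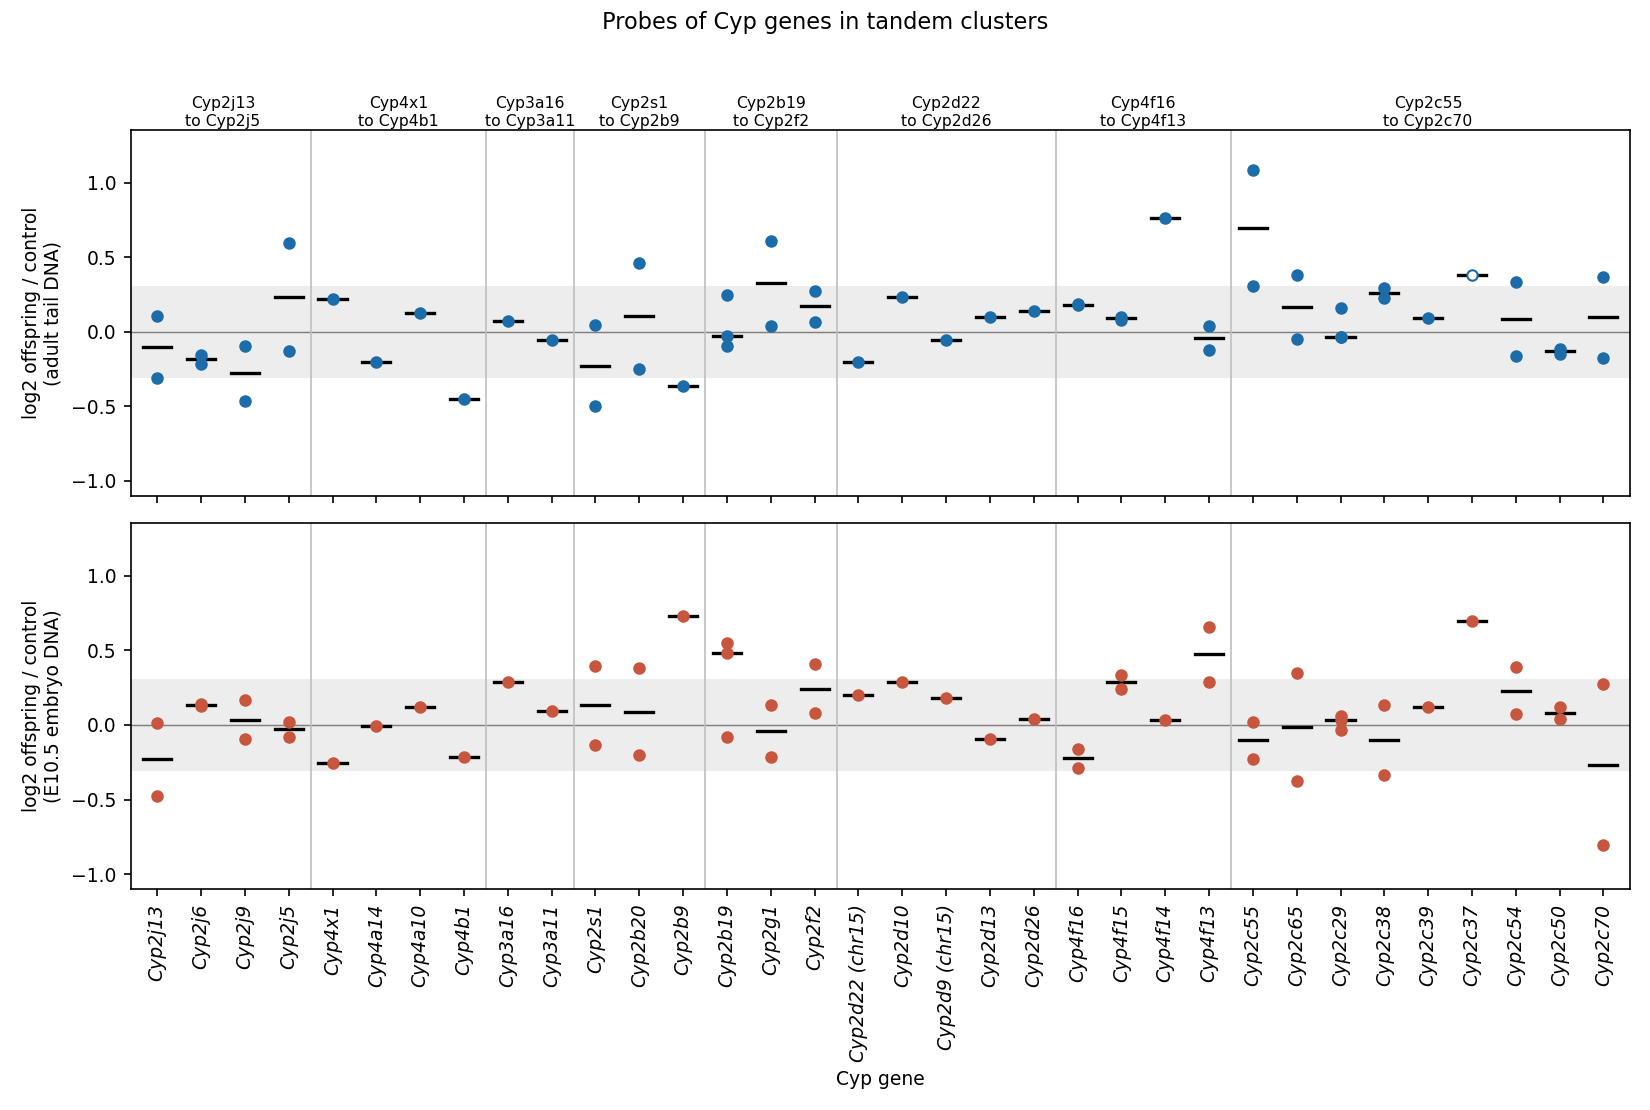
Each point is a probe of a tandem Cyp gene and each bar the median of the gene, with log2 offspring over control on the y axes (adult DNA above, embryo DNA below), genes in chromosomal order within each cluster, and the band within 0.3 of the array median shaded; the open point is a probe not well above background. Cyp2c55 and Cyp4f14 reach 0.69 and 0.76 in adult DNA, and Cyp2b9 and Cyp2c37 reach 0.73 and 0.69 in embryo DNA.

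The largest cluster, on chromosome 19 from position 38431369 to 39709742, held 9 Cyp2c genes with 17 probes. Cyp2c enzymes oxidise drugs, arachidonic acid and retinoids in liver, gut and kidney. Positions are given as the authors deposited them. Their build is not given in the sources here, and the files do not say whether a probe lies in an exon or an intron. The cluster median was 0.16 ± 0.31 in adult DNA and 0.058 ± 0.34 in embryo DNA (SD over 17 probes), against −0.022 ± 0.37 and 0.0033 ± 0.33 for the 30 probes on either side. Cyp2c55 led the cluster in adult DNA with probe values of 1.08 and 0.30. Its first probe (chromosome 19, 38431369 to 38431428) had signals of 321 in offspring and 149 in control, with a deposited error (the error of the log ratio as the scanner software wrote it) of 0.71, and its second had 426 in offspring and 340.2 in control. Both probes were dimmer than the median autosomal probe, at 961 in offspring and 937 in control, and in embryo DNA they gave −0.23 and 0.017. With normexp, the adult median of Cyp2c55 was 0.2997 in place of 0.69, just under the threshold.

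The other Cyp2c genes varied from probe to probe. Cyp2c70, which in the mouse makes muricholic bile acids, had the lowest Cyp probe in embryo DNA at −0.80 (1788 in offspring and 3101 in control), while its second probe stood at 0.27. In adult DNA the same probes gave 0.37 and −0.17, the reverse order. Cyp2c54, with 0.33 and −0.16 in adult DNA, had 0.074 and 0.39 in embryo DNA. Cyp2c38 had 0.23 and 0.29 in adult DNA, where its probes differed little, and 0.13 and −0.34 in embryo DNA. Cyp2c37 had 1 probe, at 0.38 in adult DNA, where it was not well above background, and at 0.69 in embryo DNA, with signals of 144 in offspring and 88.4 in control. Its deposited errors, 1.77 in adult DNA and 1.22 in embryo DNA, exceed both values, and with normexp the embryo value was −0.35. The deposited log ratio of this probe in adult DNA is 0, so the 0.38 comes from the processed signals alone. Cyp2c50 lay at −0.13 in adult DNA and 0.078 in embryo DNA, with SDs of 0.022 and 0.058 over its 2 probes.

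Genes of a cluster can be close copies in their flanking DNA too, and the closest pairs are shown here to let a reader see how similar genes of a cluster can be. RefSeq promoter windows (GRCm38.p6) were matched for 45 of the 60 names, and the 250 bases before the start were aligned. The 48 pairs within clusters had a median identity of 53.7% (48.0% to 84.3%), with 6 pairs at 70% or more. The 153 pairs of single genes had a median of 49.2% (43.6% to 54.5%) and none at 70%. In the 3 closest pairs the last 120 bases before the start read as follows, with capitals for letters that have no identical partner in the alignment of the pair.
Cyp2c37, chr19:39992304-39992423, plus strand: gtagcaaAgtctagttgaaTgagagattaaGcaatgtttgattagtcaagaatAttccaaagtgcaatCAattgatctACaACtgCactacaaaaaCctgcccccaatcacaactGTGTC
Cyp2c50, chr19:40089559-40089678, plus strand: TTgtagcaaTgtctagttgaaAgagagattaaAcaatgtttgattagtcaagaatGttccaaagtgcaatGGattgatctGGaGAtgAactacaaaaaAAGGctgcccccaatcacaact
Cyp2d10, chr15:82407195-82407314, minus strand: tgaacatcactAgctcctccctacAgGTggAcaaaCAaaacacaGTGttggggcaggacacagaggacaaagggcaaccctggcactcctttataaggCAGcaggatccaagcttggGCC
Cyp2d9, chr15:82452257-82452376, plus strand: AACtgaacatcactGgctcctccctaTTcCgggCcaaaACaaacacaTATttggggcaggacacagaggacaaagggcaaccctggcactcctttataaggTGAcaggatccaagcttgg
Cyp3a11, chr5:145879855-145879974, minus strand: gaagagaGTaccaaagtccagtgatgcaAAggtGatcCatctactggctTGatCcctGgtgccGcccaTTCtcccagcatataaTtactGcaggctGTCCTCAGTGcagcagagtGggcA
Cyp3a16, chr5:145469724-145469843, minus strand: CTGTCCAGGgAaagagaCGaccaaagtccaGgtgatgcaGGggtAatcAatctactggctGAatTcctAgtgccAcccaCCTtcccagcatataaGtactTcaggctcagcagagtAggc
Over the 250 bases these pairs were 84.3%, 82.8% and 76.6% identical. The ratios of Cyp2d10 and Cyp2d9 (chromosome 15) differed by 0.29 in adult DNA and 0.11 in embryo DNA, and those of Cyp3a11 and Cyp3a16 by 0.13 and 0.19. For Cyp2c37 and Cyp2c50 no difference is given, since the Cyp2c37 probe was dim. The array probes themselves have no sequence in the files, so how far a probe binds a neighbouring copy was not tested.

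The Cyp2b, Cyp2g, Cyp2f and Cyp2s genes of chromosome 7 form 2 clusters here, from 20967539 to 21114001 and from 22113621 to 22502009, which join when genes up to 1000 kb apart are chained. The first held 3 genes with 5 probes. It had a median of −0.25 ± 0.38 in adult DNA and of 0.38 ± 0.39 in embryo DNA, where it was the 1 cluster of 8 whose median passed 0.3. Its flanks stood at −0.027 ± 0.28 in adult DNA and 0.077 ± 0.36 in embryo DNA, so the cluster lay 0.22 below them on the first and 0.30 above them on the second. In embryo DNA the left flank alone stood at 0.17 and the right at 0.062. The 1 probe of another name inside the cluster lay on the same side as the cluster median on both arrays, at −0.25 in adult DNA and 0.22 in embryo DNA. Cyp2b9, a liver enzyme more abundant in female mice, had 1 probe (21113949 to 21114001), at −0.36 in adult DNA (2588 in offspring, 3272 in control) and 0.73 in embryo DNA (5040.1 in offspring, 3018 in control). Cyp2b20, an older name of the phenobarbital-inducible Cyp2b10, had probes at −0.25 and 0.46 in adult DNA and at 0.38 and −0.20 in embryo DNA. Cyp2s1, an enzyme of epithelia, had −0.50 and 0.044 in adult DNA and 0.40 and −0.13 in embryo DNA. Each of these 5 probes lay on opposite sides of 0 on the 2 arrays.

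In the second chromosome 7 cluster, Cyp2b19, an enzyme of skin keratinocytes, had probe values of 0.48, 0.55 and −0.078 in embryo DNA and of 0.25, −0.093 and −0.026 in adult DNA, in the same order of probes. The 2 high embryo probes, at 22123794 and 22125908, lay over 2 deposited errors from 0, and the third, at 22113621, did not share their shift. Cyp2g1, an enzyme of the olfactory mucosa, passed the threshold in adult DNA through its second probe (0.61, with 754 in offspring and 487 in control), the first standing at 0.041. With normexp its adult median was 0.044 in place of 0.32. In embryo DNA these probes gave −0.22 and 0.13. Cyp2f2, which oxidises naphthalene in the lung, was above 0 with all its probes on both arrays, at 0.065 and 0.28 in adult DNA and 0.41 and 0.079 in embryo DNA, without reaching 0.3 as a median.

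The Cyp2d cluster of chromosome 15, relatives of the human drug-metabolising CYP2D6, had 5 genes of 1 probe each and medians of 0.096 ± 0.17 in adult DNA and 0.18 ± 0.15 in embryo DNA. All 5 genes lay within 0.3 on both arrays, from −0.20 (Cyp2d22) to 0.23 (Cyp2d10) in adult DNA and from −0.091 (Cyp2d13) to 0.29 (Cyp2d10) in embryo DNA. The Cyp2j cluster of chromosome 4, whose enzymes epoxidise arachidonic acid, had 4 genes with 8 probes and medians of −0.14 ± 0.32 in adult DNA and 0.017 ± 0.21 in embryo DNA. Its widest spread was in Cyp2j5, with 0.60 and −0.13 in adult DNA against −0.079 and 0.019 in embryo DNA. Cyp2j9 was lowest in adult DNA, at −0.46 and −0.094, and Cyp2j13 in embryo DNA, at −0.48 and 0.015. Cyp2j6 was the most even gene of the cluster, with −0.22 and −0.15 in adult DNA and 0.14 and 0.13 in embryo DNA.

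Cyp3a11, the main drug-inducible P450 of adult mouse liver, and Cyp3a16, its fetal liver relative, made up the chromosome 5 cluster with 1 probe each. Cyp3a11 stood at −0.053 in adult DNA and 0.092 in embryo DNA, and Cyp3a16 at 0.073 and 0.29. The single Cyp3a13 of the gut had a median of −0.060 in adult DNA and −0.21 in embryo DNA. None of the 3 Cyp3a loci passed 0.3.

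The Cyp4 genes hydroxylate fatty acids and leukotrienes at the end of the chain. In the Cyp4f cluster of chromosome 17 (30364365 to 30771494), with 4 genes and 7 probes, the median was 0.10 ± 0.28 in adult DNA and 0.24 ± 0.32 in embryo DNA, against −0.0039 and 0.051 in the flanks. Cyp4f13 passed 0.3 in embryo DNA with both probes on the same side, at 0.66 (1978 in offspring, 1247 in control) and 0.29, and stood at 0.038 and −0.12 in adult DNA. Cyp4f14 had the highest locus value of the set in adult DNA, 0.76, from 1 dim probe (217 in offspring, 126 in control, deposited error 0.89), and 0.036 in embryo DNA. With normexp the adult value was 0.20. Cyp4f15 and Cyp4f16 had closely spaced probes: Cyp4f15 gave 0.10 and 0.077 in adult DNA and 0.33 and 0.24 in embryo DNA, and Cyp4f16 gave 0.19 and 0.18 against −0.16 and −0.29. Neighbours in this cluster thus lay on opposite sides of 0 in embryo DNA.

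The Cyp4x1 to Cyp4b1 cluster of chromosome 4 (114079090 to 114587791) had 4 genes of 1 probe each and medians of −0.037 ± 0.31 in adult DNA and −0.11 ± 0.18 in embryo DNA. Cyp4b1, an enzyme of lung and kidney, was its lowest gene in adult DNA at −0.45 (499 in offspring, 670.3 in control) and stood at −0.22 in embryo DNA. Cyp4a10 and Cyp4a14, fatty acid hydroxylases that PPARα induces, stood at 0.13 and −0.20 in adult DNA and at 0.12 and −0.010 in embryo DNA. Cyp4x1 had 0.22 in adult DNA and −0.26 in embryo DNA.

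Over the 8 clusters, medians ran from −0.25 to 0.16 in adult DNA and from −0.11 to 0.38 in embryo DNA. Against the flanking probes they differed by −0.22 to 0.18 in adult DNA and by −0.13 to 0.30 in embryo DNA. The flanks are the nearest probes of any name. They can thus hold Cyp probes outside the cluster, such as those of Cyp4f39 and Cyp4f41-ps, under older names, beside the Cyp4f cluster. The spread among Cyp probes of a cluster, with SDs of 0.089 to 0.38 and 0.14 to 0.39, overlapped that of the flanks, 0.24 to 0.37 and 0.26 to 0.43. Probes of other names inside the clusters had medians between −0.25 and 0.38 in adult DNA and between −0.17 and 0.22 in embryo DNA. No cluster median came near the −0.86 of X.

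**Figure D2:**
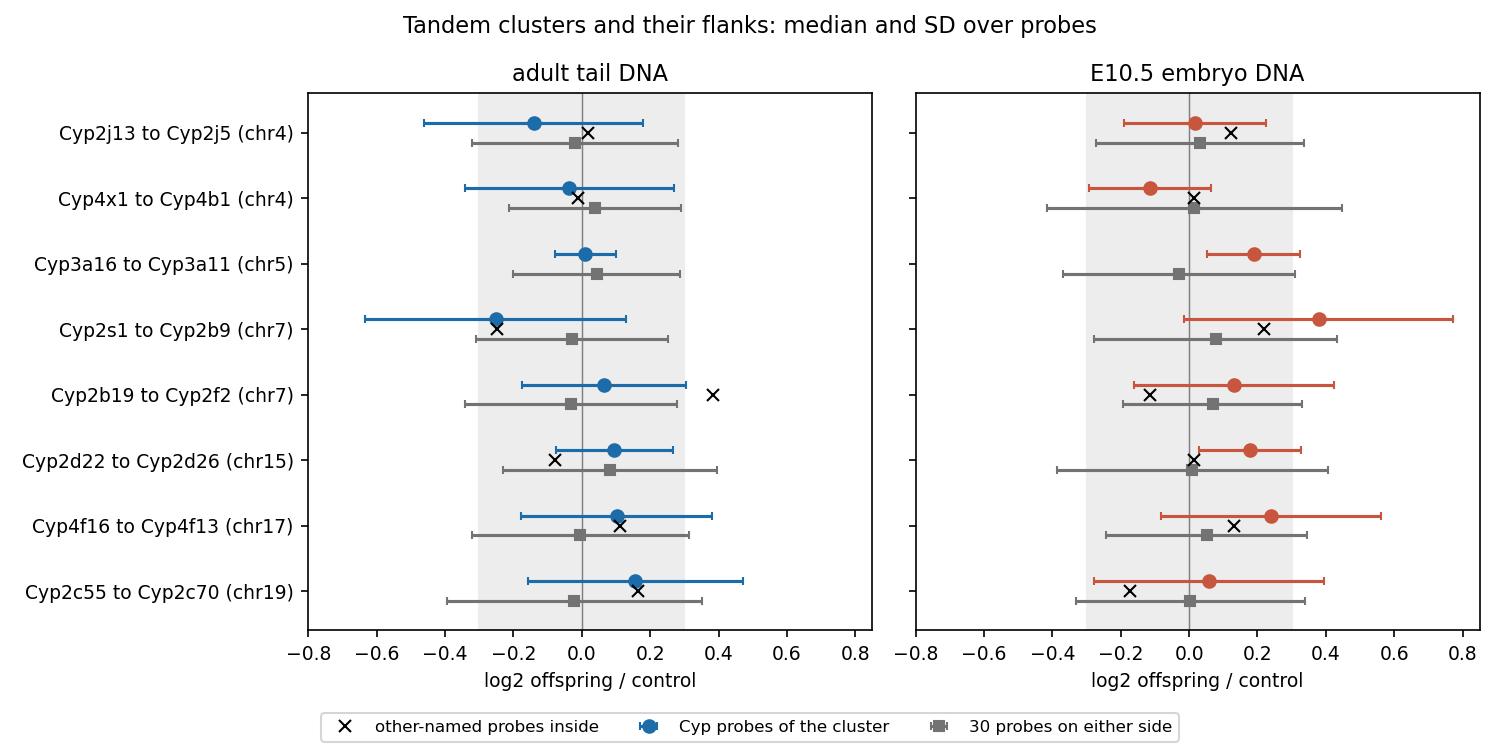
For each tandem cluster, circles give the median of its Cyp probes, squares the median of the 30 probes on either side together, with bars for the SD over probes, and crosses the median of other-named probes inside the cluster; the x axes are log2 offspring over control, with the band within 0.3 shaded (adult DNA left, embryo DNA right). The bars of cluster and flanks overlap in all 8 clusters on both arrays.

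Among single genes, the 5 of steroid hormone synthesis had the lowest median of the role groups in adult DNA, −0.26 ± 0.33, and the highest in embryo DNA, 0.37 ± 0.36 (SD over 5 loci). Of their 8 probes, 4 lay at or under −0.3 and none at or above 0.3 in adult DNA, while 6 lay at or above 0.3 and none at or under −0.3 in embryo DNA. Over all autosomal probes, 13% lay at or under −0.3 in adult DNA and 12.4% at or above 0.3 in embryo DNA. With normexp, 2 of the 8 were lower in adult DNA, where 3.72% of all autosomal probes were. In embryo DNA 5 were then higher, where 20.2% of all autosomal probes were. The role groups were drawn up with values of these arrays already known, so this is a description. Opposite signs on the 2 arrays were also the rule over all autosomal probes, of which 39.0% had the same sign. Several of the steroid probes were short: 52 and 51 bases in Cyp11a1, 51 and 48 in Cyp21a1, and 56 in both of Cyp19a1. Those of Cyp17a1 and Cyp11b2 had 60 and 58. Whether probe length bears on these values was not tested. Cyp11a1, which cuts the cholesterol side chain in the first step of steroid synthesis, had the highest Cyp probe in embryo DNA. That probe (chromosome 9, 58129882 to 58129933) stood at 1.23, with 1136 in offspring and 483 in control and a deposited error of 0.31, and the second probe, at 0.36. In adult DNA they gave 0.075 and −0.31. The locus median of 0.80 in embryo DNA is a ratio of 1.74, with an SD of 0.61 over the 2 probes. The 5 nearest probes on either side of the locus, 10 in all, had a median of 0.049 in embryo DNA, 5 of them above 0.

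Cyp21a1, the steroid 21-hydroxylase gene of the major histocompatibility region, had both probes past 0.3 in embryo DNA, at 0.45 (7419 in offspring, 5410.02 in control) and 0.69 (2377 in offspring, 1465 in control). Both lay over 2 deposited errors from 0. The 5 nearest probes on either side of the locus, 10 in all, had a median of 0.30 in embryo DNA, with 8 above 0. In adult DNA their median was −0.017, with 4 above 0. In adult DNA Cyp21a1 itself had −0.55 and 0.029. Cyp17a1, which makes androgen precursors, had 1 probe, at −0.69 in adult DNA (154 in offspring, 243 in control) and 0.37 in embryo DNA (470.5 in offspring, 362 in control). Its deposited errors were 0.78 and 0.39, and with normexp the values were 0.081 and −0.14, so neither direction held under that background correction. Cyp19a1, the aromatase that makes oestrogens, had −0.56 and −0.033 in adult DNA and 0.45 and −0.078 in embryo DNA, so that its first probe lay past 0.3 on both arrays, in opposite directions, and its second near 0. Cyp11b2, aldosterone synthase, stood at 0.22 in adult DNA and −0.15 in embryo DNA with 1 probe.

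**Figure D3:**
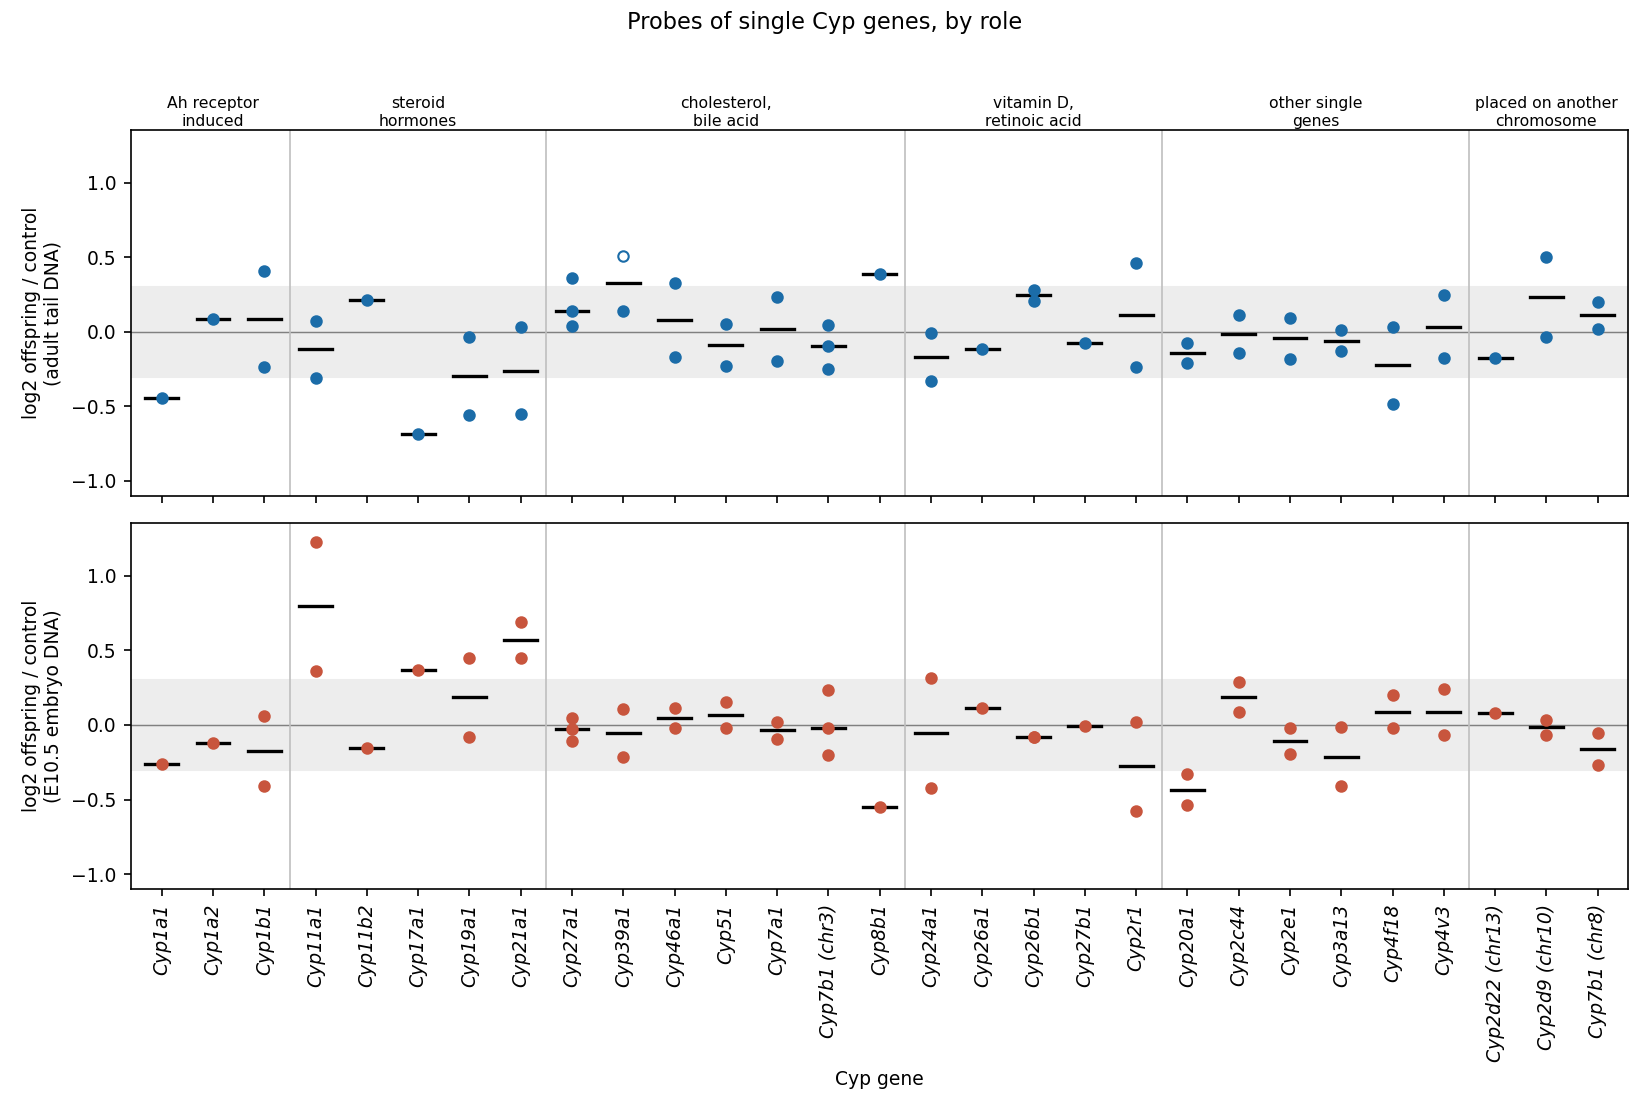
Each point is a probe of a single Cyp gene and each bar the gene's median, as log2 offspring over control (adult DNA above, embryo DNA below), with genes sorted by role, the band within 0.3 shaded and open points for probes not well above background. In steroid hormone synthesis, 4 of 8 probes lie at or under −0.3 in adult DNA and 6 of 8 at or above 0.3 in embryo DNA, where 13% and 12.4% of all autosomal probes do so.

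The 7 genes of cholesterol and bile acid metabolism had medians of 0.079 ± 0.19 in adult DNA and −0.030 ± 0.21 in embryo DNA. None passed 0.3 with at least 2 usable probes. Cyp8b1, which sets the share of cholic acid, had 1 probe, at 0.38 in adult DNA (762 in offspring, 575 in control) and −0.55 in embryo DNA (762 in offspring, 1111 in control). With normexp these values were 0.085 and −0.44. Cyp7a1, the rate-limiting enzyme of bile acid synthesis, stood at 0.019 ± 0.30 in adult DNA and −0.035 ± 0.080 in embryo DNA. Cyp51, a sterol demethylase of cholesterol synthesis, stood at −0.092 ± 0.20 and 0.069 ± 0.12. Cyp39a1 lay at 0.32 in adult DNA, but 1 of its 2 probes was not well above background there.

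The 5 genes of vitamin D and retinoic acid metabolism had medians of −0.074 ± 0.17 in adult DNA and −0.052 ± 0.14 in embryo DNA, and none passed 0.3. Cyp26b1, which clears retinoic acid in embryos, had 0.21 and 0.28 in adult DNA and −0.081 and −0.078 in embryo DNA. Cyp26a1, with the same activity, stood at −0.12 and 0.11. Cyp24a1, which breaks down active vitamin D, had probes at −0.0088 and −0.33 in adult DNA and at −0.42 and 0.32 in embryo DNA. Cyp2r1, which starts the activation of vitamin D, had −0.24 and 0.46 against 0.022 and −0.57, the reverse order in embryo DNA. Cyp27b1, which completes it, stood at −0.074 in adult DNA and −0.0054 in embryo DNA.

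Of the genes that the aryl hydrocarbon receptor induces, Cyp1a1 had 1 probe at −0.44 in adult DNA (157 in offspring, 210.1 in control, deposited error 0.82) and −0.26 in embryo DNA. With normexp its adult value was 0.18. Cyp1a2, its neighbour on chromosome 9, stood at 0.082 in adult DNA and −0.12 in embryo DNA. Cyp1b1 had 0.41 and −0.24 in adult DNA and 0.061 and −0.41 in embryo DNA. Cyp2c44, an older name of Cyp2c23 and a single gene on chromosome 19, had −0.14 and 0.11 in adult DNA and 0.088 and 0.29 in embryo DNA. Its embryo median of 0.19 became 0.34 with normexp, past 0.3. Cyp2e1, the ethanol-inducible enzyme, lay near the array median with both probes on both arrays, between −0.19 and 0.095. Cyp20a1, a P450 without a settled substrate, was the 1 lower locus in embryo DNA, with both probes on the same side at −0.54 and −0.33, and a median of −0.28 with normexp, short of 0.3. It stood at −0.073 and −0.21 in adult DNA. The 5 nearest probes on either side of it, 10 in all, had a median of 0.10 in embryo DNA.

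The names Cyp2d9, Cyp7b1 and Cyp2d22 also had probes on a chromosome other than that of the gene in the RefSeq table (GRCm38.p6), 5 probes in all. Cyp2d9 on chromosome 10 had a median of 0.23 in adult DNA and −0.017 in embryo DNA, Cyp7b1 on chromosome 8 had 0.11 and −0.16, and Cyp2d22 on chromosome 13 had −0.17 and 0.078. None of these passed 0.3, and all are counted among the single genes.

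Values on the 2 arrays mostly ran in opposite directions, as they did over the whole genome. Of 107 Cyp probes, 41 (38.3%) had the same sign on both, against 39.0% of 40482 autosomal probes. Pearson's r between the arrays was −0.30 and Spearman's rho −0.33 over the Cyp probes, and −0.25 and −0.31 over all autosomal probes, as descriptions across probes that share each array. The dyes were swapped between the arrays, so as Cy5 over Cy3 the same correlations are positive, and the part of the dyes in these values was not tested. At 0.3 or more on both arrays, 1 of 63 loci (1.59%) lay on the same side, Cyp2c37, where 1.14% of all autosomal loci did. The adult value of Cyp2c37 came from a probe not well above background, whose deposited log ratio is 0. Another 3 (4.76%) lay on opposite sides, Cyp17a1, Cyp2b9 and Cyp8b1, where 4.91% of all loci did. All 4 have 1 probe. Both shares are near those of all loci.

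**Figure D4:**
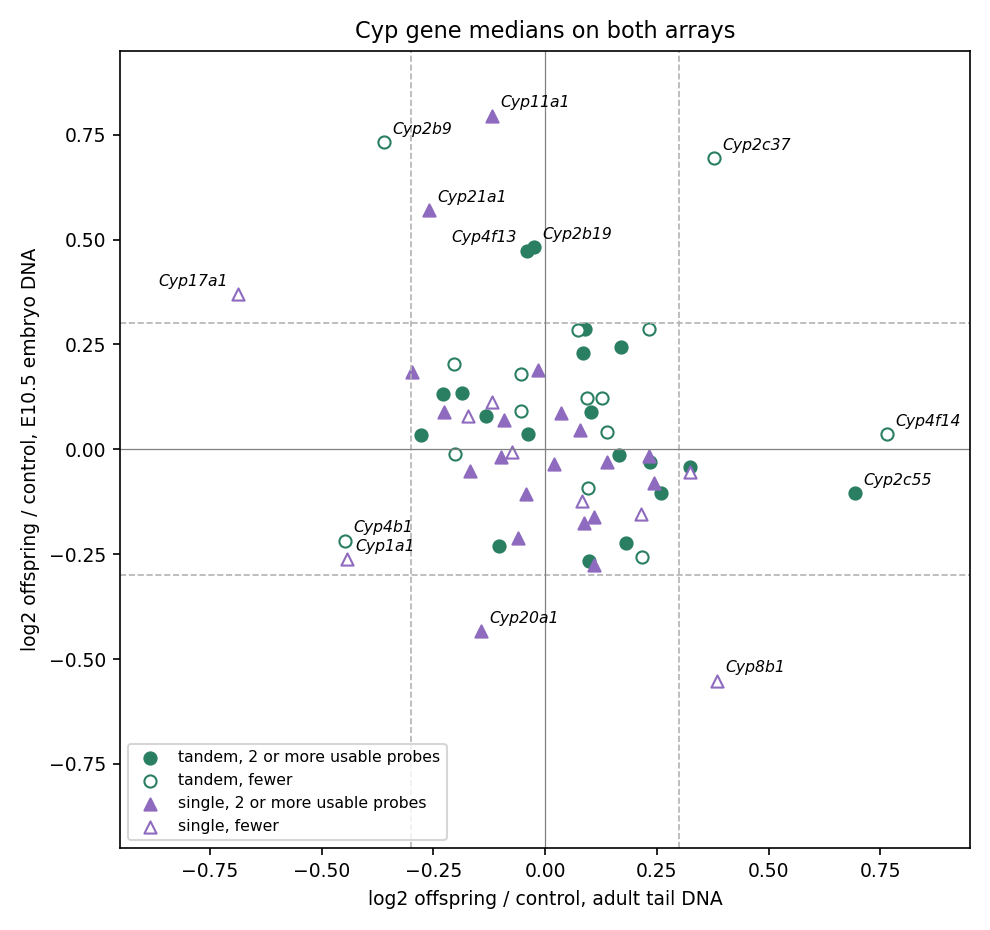
Locus medians of the 63 Cyp loci as log2 offspring over control, adult array on the x axis and embryo array on the y axis, with dashed lines at 0.3 and −0.3; filled symbols have at least 2 usable probes on both arrays, circles are tandem and triangles single genes. Only open symbols, Cyp2b9, Cyp17a1, Cyp8b1 and Cyp2c37, lie outside the dashed lines on both axes.

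Probes of 1 gene differed about as much as genes did, with a pooled SD within loci of 0.29 on both arrays, where the SD between Cyp loci was 0.25 in adult DNA and 0.26 in embryo DNA. Over all autosomal loci the pooled SD within loci was 0.32 on both arrays. In the 36 Cyp loci with 2 probes, the median gap between them was 0.40 in adult DNA and 0.28 in embryo DNA, against 0.26 on each array over all autosomal loci with 2 probes. The probes lay on opposite sides of 0 in 21 of the 36 in adult DNA and also in 21 in embryo DNA (58.3% each), as in 4324 of 8645 such loci of the whole array in adult DNA and 4193 of 8640 in embryo DNA. Dim probes spread more in adult DNA: 20 Cyp probes with an average processed signal under 500 had an SD of 0.44, and the other 87 had 0.24. In embryo DNA, 14 such probes had an SD of 0.31 and the other 93 had 0.30. Over all autosomal probes the SDs were 0.52 and 0.23 in adult DNA and 0.43 and 0.32 in embryo DNA. Beyond 2 deposited errors from the array median lay 4 Cyp probes in adult DNA (3.74%, against 2.91% of autosomal probes) and 10 in embryo DNA (9.35%, against 8.64%). The adult ones were lower, in Cyp2j9, Cyp4f18, Cyp19a1 and Cyp21a1. Of the embryo ones, 7 were higher, in Cyp2b9, Cyp2b19, Cyp11a1, Cyp4f13 and Cyp21a1, and 3 were lower, in Cyp20a1, Cyp8b1 and Cyp2c70.

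A shift shared by both arrays was tested for each probe with limma against 0, with Benjamini-Hochberg adjustment over 42362 probes. None of the 107 Cyp probes passed an adjusted p of 0.05, and neither did any probe of the whole array (0%). The smallest adjusted p of the whole array was 0.22 in limma. X probes, with a median of −0.86 on both arrays, gave no call either. The test thus missed a shift of that size on both arrays, so it cannot show that Cyp copies are unchanged. Before adjustment 1 Cyp probe, that of Cyp2c37, lay under 0.05 (0.935%, against 4.53% of all probes). Its mean in limma was 0.54 with a standard error of 0.20 and an adjusted p of 0.87. In adult DNA this probe was not well above background, and its deposited log ratio there is 0. The arrays differ in stage, tissue and dye direction, so the test asks only for a change common to both.

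The partners of the P450s were described in the same way, from lists drawn up with earlier results of these data known. Over 144 loci of electron donors, regulating receptors, conjugating enzymes, dehydrogenases and transporters, the median was 0.0054 ± 0.25 in adult DNA and 0.0049 ± 0.22 in embryo DNA. Of 104 with at least 2 usable probes, 4 were higher and 7 lower in adult DNA, where 5.71% of all autosomal loci were higher and 6.74% lower. Of 108, 6 were higher and 4 lower in embryo DNA, where 6.56% and 8.06% of all loci were. Ahr, the receptor that induces the Cyp1 genes, stood at −0.71 ± 0.52 in adult DNA and 0.13 ± 0.20 in embryo DNA, and its partner Arnt at −0.36 ± 0.26 and 0.14 ± 0.031 (SD over 2 probes each). Fdx1, the ferredoxin that passes electrons to mitochondrial P450s such as Cyp11a1, stood at −0.42 ± 0.11 and 0.042 ± 0.24. Ppara, the receptor that induces the Cyp4a genes, stood at 0.33 ± 0.46 and 0.036 ± 0.22. Other members of the receptor list passed 0.3 in embryo DNA instead. Rxra stood at −0.26 ± 0.098 in adult DNA and 0.38 ± 0.53 in embryo DNA (3 probes), and Nfe2l2 at 0.12 ± 0.093 and −0.38 ± 0.63 (2 probes). Rxrb, with 1 probe, stood at 0.12 and 0.94. Of 11 loci of that list with at least 2 usable probes, 1 was higher and 2 lower in adult DNA, and 1 higher and 1 lower in embryo DNA. No member named here passed 0.3 on both arrays.

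The array reads the tandem families less fully than the single-gene ones. Of 99 protein-coding Cyp genes in the RefSeq table, 59 had a probe under a Cyp name. These were 20 of 22 genes outside the Cyp2, Cyp3a and Cyp4 families, 26 of 48 Cyp2 genes, 3 of 9 Cyp3a genes and 10 of 20 Cyp4 genes. None of the 4 Cyp2a genes and 2 of the 8 Cyp4a genes had one, so those rows of duplicates are described here by few or no probes.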

How the data were processed

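The labels gave the group and dye of each channel of the 2 arrays. The deposited files hold spot intensity values (processed, mean and background signals) written by Agilent Feature Extraction 9.1.1.1, per the file headers, and 9.1 per the submitters' processing notes. The deposited log10 ratio column is Cy5 over Cy3 with its own error, and the log10 ratios in the deposited matrix of the series differ from it by at most 0.0005. No source used here gives the genome build.

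From the processed signals the log2 ratio of offspring over control was computed, outlier-marked spots (8 adult, 34 embryo, none of a Cyp probe) were left out, repeated spots were averaged per probe, and the array median was subtracted without loess. Errors were converted from log10 to log2. Cyp names were matched to RefSeq (58 as symbols, 2 as synonyms). The 2 arrays were fitted together in limma 3.58.1 (R 4.3.3, lmFit and eBayes), and other steps used Python 3.11.15, pandas 2.3.3 and Biopython 1.88. The steps were tested on simulated data. Alternatives were normexp with an offset of 50, loess, probes well above background only, autosomal centring, the series matrix, the other dye direction, means over probes and other definitions of tandem and single.

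The members, lists and the naming rule were chosen with earlier results of these data known. The definition of a locus and the signal limit of 500 were set after the files were seen. The text names, per array, the 8 highest and 8 lowest loci with at least 2 usable probes, the highest and lowest gene of each cluster, loci at 0.3 or more on both arrays and 12 fixed genes. Other Cyp members (among them Cyp2d9, Cyp39a1, Cyp11b2 and Cyp4a14) and the partner genes were named after their values were seen.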

Additional observations from a re-analysis of the deposited data

Results flagged for a closer look

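Cyp17a1, Cyp2b9 and Cyp8b1 lay at least 0.3 from the array median on both arrays in opposite directions, and the difference between the arrays was not tested. Cyp17a1 had a log2 ratio of −0.69 in adult DNA and 0.37 in embryo DNA. Cyp2b9 had −0.36 in adult DNA and 0.73 in embryo DNA. Cyp8b1 had 0.38 in adult DNA and −0.55 in embryo DNA. Each of these values rests on 1 probe. With normexp, Cyp17a1 stood at 0.081 in adult DNA and −0.14 in embryo DNA, Cyp8b1 at 0.085 and −0.44, and Cyp2b9 at −0.41 and 1.003, so only Cyp2b9 of the 3 stayed past 0.3 in opposite directions under that correction. Opposite directions at this size were found in 4.91% of all autosomal loci.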

How the results depend on the processing

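Over 679 recomputed values of loci and clusters, 38 changed sign, 29 of them among 116 with normexp. Among values at 0.3 or more, 4 changed sign, all with normexp: Cyp17a1 was at 0.081 in adult DNA and −0.14 in embryo DNA, Cyp1a1 at 0.18 in adult DNA and Cyp2c37 at −0.35 in embryo DNA. These probes have processed signals under 500, and the cause was not tested. The number of Cyp loci past 0.3 was 1 in adult DNA and 9 in embryo DNA with normexp (0.732% and 18.2% of all autosomal loci passed), 1 and 2 at a threshold of 0.5 (2.51% and 3.54% of all), and 10 and 9 over all loci with at least 1 probe, where 20% and 21.6% of all autosomal loci passed. As Cy5 over Cy3, the tandem minus single difference in adult DNA is −0.13 by construction. The medians of all Cyp loci, 0.035 in adult DNA and 0.036 in embryo DNA, were −0.011 and −0.0098 with normexp. No Cyp probe passed an adjusted p of 0.05 in limma under any of the 5 alternatives. With normexp limma called 39 probes of the whole array. No paired analysis was possible because each stage has 1 array and the labels carry no replicate numbers. Signal over background limits Cyp2c37 and Cyp39a1 in adult DNA, with 1 dim probe each.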

Other observations

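A further 7 probes carry older names that the RefSeq table gives as synonyms of Cyp genes. They belong to Cyp2ab1 on chromosome 16 (named F730023N20 on the array), Cyp4f39 on chromosome 17 (4732474A20Rik) and the pseudogene Cyp4f41-ps on chromosome 17 (6030422M01Rik). Cyp2ab1 had a median of −0.014 in adult DNA and 0.11 in embryo DNA. Cyp4f39, which lies beside the Cyp4f cluster, had −0.015 and 0.19, and Cyp4f41-ps had 0.0024 and 0.082. None of the 3 passed 0.3 on either array, and all 3 lay above 0 in embryo DNA.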
